A study of Mus musculus with 16 samples.

Results

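The comparison of odor with vehicle was made in 8 of the 16 arrays of this study, those whose titles call the sorted cells GFP-. Both groups came from S100a5-tauGFP mice of the C57BL/6 strain, of both sexes and 7 to 12 weeks old. In these mice the gene S100a5, whose transcription in olfactory sensory neurons follows their activity, drives a fluorescent protein. The mice were housed alone in chambers of flowing clean air for 40 h, and from 26 h on they received 10 s pulses every 20 min. The odor group was given a mixture of undecanal, a straight-chain aldehyde, and bourgeonal, an aldehyde with an aromatic ring and a lily-like odor. The vehicle group was given filtered air on the same schedule. Olfactory mucosa was dissociated and sorted by fluorescence, and each array holds RNA pooled from 3 mice, with 4 odor and 4 vehicle pools. Each pool was sorted into both fractions, so each of the 8 arrays has a partner titled GFP+ from the same mice. The copy number of the reporter allele was not given in the sources used here. Which odorant of the mixture a difference belongs to cannot be told apart, since no pool received either one alone.

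An olfactory sensory neuron expresses 1 olfactory receptor gene, and an odorant that binds the receptor opens a cyclic nucleotide-gated channel through the G protein Golf and adenylyl cyclase 3. Firing then raises transcripts of a set of activity-dependent genes, among them S100a5 and several cell surface molecules by which axons of neurons with the same receptor sort together in the olfactory bulb. In the Kentucky assay, receptors that respond to an odor are sought by the shift of their transcripts into the fluorescent fraction, because only the neurons that were stimulated make more of the reporter. An odor is thus set against all other neurons of the same sorted fraction, most of which carry receptors that do not bind it.

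The titles and the cell type field of the labels give opposite GFP states on all 16 arrays: the arrays studied here are titled GFP- and are called GFP+ in that field. S100a5 itself went against the titles. Its signal on the arrays titled GFP- exceeded that of the partner arrays titled GFP+ in 8 of 8 pools, by 2.43, 0.71, 1.08 and 1.03 log2 units in odor pools 1 to 4 and by 0.94, 0.85, 1.13 and 1.07 in vehicle pools 1 to 4. A log2 unit is a doubling of the array signal. The titles are kept here as names, and the libraries are written as titled GFP-. Comparing odor with vehicle inside this fraction does not depend on which name is right.

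Markers of olfactory sensory neurons were abundant. Omp, the olfactory marker protein of mature neurons, averaged 18.54 with odor and 18.6 with vehicle, and the mean over the 17 mature neuron markers was 15.7 to 15.8 on all 8 arrays. Of 15 neutrophil markers, 13 were above background on 0 of the 8 arrays, and their mean was 5.35 to 5.83 with odor and 5.19 to 5.55 with vehicle, against 12.4 to 14.5 on the arrays titled GFP+. Of 19 markers of other leukocytes, 16 were above background on 0 of 8 arrays, with means of 5.07 to 5.89 and 5.35 to 5.45. RNA of other cells of the mucosa was present in both groups. Of 15 sustentacular cell markers 8 were above background on at least 4 of the 8 arrays, and the mean over the list was 6.79 to 8.02 with odor and 7.16 to 8.06 with vehicle. The sustentacular cytochromes Cyp2g1 and Cyp2a5 averaged 12.55 and 11.67 with odor and 12.57 and 11.83 with vehicle. Of 11 Bowman gland markers 5 were above background in this sense, with means of 6.68 to 7.36 and 6.76 to 7.91. Of 8 ensheathing glia markers 1 was, Apoe, a lipid carrier of glia and other cells, which averaged 11.54 and 11.13. The other 7 were above background on 0 of the 8 arrays. An array's background was the signal that 95% of its GC-graded background probe sets lie under, at 6.87 to 7.41. Odor replicate 1 stood at the edge of several of these ranges. It had the highest mean of neutrophil markers, 5.83, and of other leukocyte markers, 5.89, the lowest median over receptors, 8.69, and the highest S100a5, 17.08. Values without this library are given below for S100a5, Olfr1469, Pcdh10, Olfr16 and Camk2n1. Leaving it out also moved the differences of Apoe from 0.41 to -0.03 and of Kirrel3 from -0.12 to 0.11. Pcp4l1 moved from -0.14 to -0.24 and Plcxd3 from -0.06 to -0.14. What part this library's edge values had in the results was not tested. Array signal in a sorted fraction cannot tell more RNA in each cell from more cells that carry the RNA.

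Of 19572 features tested, 0 passed an adjusted p of 0.05 (limma's moderated test across 4 groups, Benjamini-Hochberg adjustment), which is 0% in either direction. An unadjusted p under 0.05 was reached by 805 features, 4.11%, of which 459 (2.35%) averaged higher with odor and 346 (1.77%) lower. The 4 odor arrays lay wholly above the 4 vehicle arrays for 296 features (1.51%) and wholly below for 286 (1.46%), together 2.97%. Replicate numbers paired odor and vehicle arrays: the deviations of same-numbered arrays from their group means correlated at 0.18 to 0.38 across features. With the replicate number as a block, 1 feature passed, 0.00511% of those tested, and it was Pcdh10; 5.73% had an unadjusted p under 0.05 in that fit. A difference of at least 1 log2 unit in either direction was seen for 18 features (0.092%). Of these, 11 were olfactory receptors.

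Pcdh10, protocadherin 10, is a homophilic adhesion molecule of the cell surface and belongs to the genes whose level in olfactory sensory neurons follows activity. Its signal was 11.77, 11.26, 10.88 and 10.98 on odor arrays 1 to 4 and 10.27, 9.5, 9.08 and 9.08 on vehicle arrays 1 to 4. Every odor array stood above every vehicle array. The means were 11.22 ± 0.40 (SD, n = 4) and 9.48 ± 0.56 (SD, n = 4), a difference of 1.74 log2 units (SE 0.31, 95% interval 1.08 to 2.39), or 3.33-fold. Its adjusted p was 0.77 without the block (unadjusted p 3.9e-05) and 0.0022 with it (unadjusted p 1.1e-07). The same-numbered arrays differed by 1.5, 1.75, 1.8 and 1.9 log2 units, a narrower range than that of either group. Without odor replicate 1 and without the block, the difference was 1.56. Blocking over the 8 arrays of this fraction alone gave an adjusted p of 0.0317. With 3 pairs in place of 4, leaving out pair 1 gave 1.82 with an adjusted p of 0.0417, while leaving out pair 2, 3 or 4 gave 1.73, 1.72 and 1.68 with adjusted p of 0.0637, 0.114 and 0.103.

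The promoters of Pcdh10, the feature that passed with the block, of S100a5, the reporter gene, and of Olfr16, the aldehyde receptor described further on, are shown to set a gene that passed beside others that did not. They are RefSeq windows of 300 bases that span each transcription start on assembly GRCm38.p6, all read on the plus strand: Pcdh10 at chr3:45378148-45378447, S100a5 at chr3:90608272-90608571 and Olfr16 at chr1:172956518-172956817. Capitals mark TGACG, a half-site of the cAMP response element bound by CREB family factors.
Pcdh10: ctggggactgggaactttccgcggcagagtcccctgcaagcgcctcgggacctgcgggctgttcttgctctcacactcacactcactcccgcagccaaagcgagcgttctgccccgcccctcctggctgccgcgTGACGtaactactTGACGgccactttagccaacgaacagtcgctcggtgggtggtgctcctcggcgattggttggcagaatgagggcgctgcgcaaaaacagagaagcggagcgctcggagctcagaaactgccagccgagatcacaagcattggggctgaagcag
S100a5: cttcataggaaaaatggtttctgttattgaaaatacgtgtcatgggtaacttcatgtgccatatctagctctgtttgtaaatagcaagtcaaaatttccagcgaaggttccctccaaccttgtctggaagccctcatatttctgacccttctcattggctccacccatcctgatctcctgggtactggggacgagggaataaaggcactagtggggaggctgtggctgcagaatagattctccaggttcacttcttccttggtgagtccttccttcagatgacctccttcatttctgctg
Olfr16: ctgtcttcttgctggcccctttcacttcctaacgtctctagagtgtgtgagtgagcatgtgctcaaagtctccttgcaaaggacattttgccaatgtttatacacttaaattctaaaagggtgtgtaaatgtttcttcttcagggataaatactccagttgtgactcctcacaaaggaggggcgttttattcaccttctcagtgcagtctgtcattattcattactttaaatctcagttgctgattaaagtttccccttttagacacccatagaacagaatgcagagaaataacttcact
The half-site starts at bases 135 and 148 of the Pcdh10 window. It was searched on both strands along with the full element TGACGTCA, which contains it, the palindromic Olf1/EBF site and the homeodomain site TAATTA, and none of these was found in the S100a5 or Olfr16 window. Of 32851 promoter windows, 20.8% hold TGACG, 1.79% TGACGTCA, 0.904% the Olf1/EBF site and 5.29% TAATTA. Among 944 olfactory receptor windows the shares were 5.61% for TGACG and 18.6% for TAATTA. A half-site is thus common, and its presence describes these letters only.

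The other activity-dependent genes gave smaller differences, and their adjusted p was 1 in each case. The list holds 11 genes, with a median difference of 0.19 log2 units against 0.00 over all features. Its members were chosen with earlier results of these data known, so its median and counts only describe it. With an unadjusted p under 0.05 there were 2 higher, Pcdh10 and Sema7a, and 0 lower, and 3 had odor arrays wholly above vehicle arrays, where all features gave 2.35% higher, 1.77% lower and 1.51% wholly above. S100a5 was at 17.08, 16.46, 16.56 and 16.51 with odor and at 16.44, 16.30, 16.46 and 16.29 with vehicle. Odor array 1 stood apart, and the other 3 began where the vehicle arrays ended, at 16.46. The difference was 0.28 (SE 0.20, 95% interval -0.14 to 0.70), and 0.14 without odor replicate 1. As the gene that drives the reporter, S100a5 was also what the cells were sorted on.

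Kirrel2 and Sema7a are surface molecules through which active neurons sort their axons and form synapses. Kirrel2, a homophilic adhesion molecule, was at 15.41, 14.52, 14.89 and 14.76 with odor and at 14.92, 13.94, 14.38 and 14.21 with vehicle. The groups overlapped, yet each odor array exceeded its same-numbered partner, by 0.49, 0.58, 0.51 and 0.55. The difference of 0.53 (SE 0.26, 95% interval -0.02 to 1.08) did not pass with the block either (adjusted p 0.77). Sema7a, a membrane-anchored semaphorin, was at 14.53, 14.53, 14.51 and 14.61 with odor and at 14.22, 14.21, 14.31 and 14.17 with vehicle. Here the groups did not overlap, and the difference of 0.32 (SE 0.12, 95% interval 0.06 to 0.57) had an unadjusted p of 0.017.

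Lrrc3b, a leucine-rich repeat membrane protein, was at 13.92, 13.29, 14.13 and 13.36 with odor and at 13.76, 12.20, 13.24 and 12.64 with vehicle. Its same-numbered differences ran from 0.16 in pair 1 to 1.09 in pair 2, and the mean difference was 0.71 (SE 0.38, 95% interval -0.09 to 1.51), or 0.46 without vehicle replicate 2. The remaining members of the list lay close to 0. Cntn4, a contactin of axon targeting, differed by 0.19 (SE 0.12) and Pcp4l1, a small calmodulin-regulator-like protein, by -0.14 (SE 0.22). Kirrel3, which is known to be expressed in a pattern opposite to Kirrel2, differed by -0.12 (SE 0.30), Plcxd3 by -0.06 (SE 0.17), and the axon guidance partners Epha5 and Efna5 by -0.02 (SE 0.21) and 0.01 (SE 0.12).

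**Figure D1:**
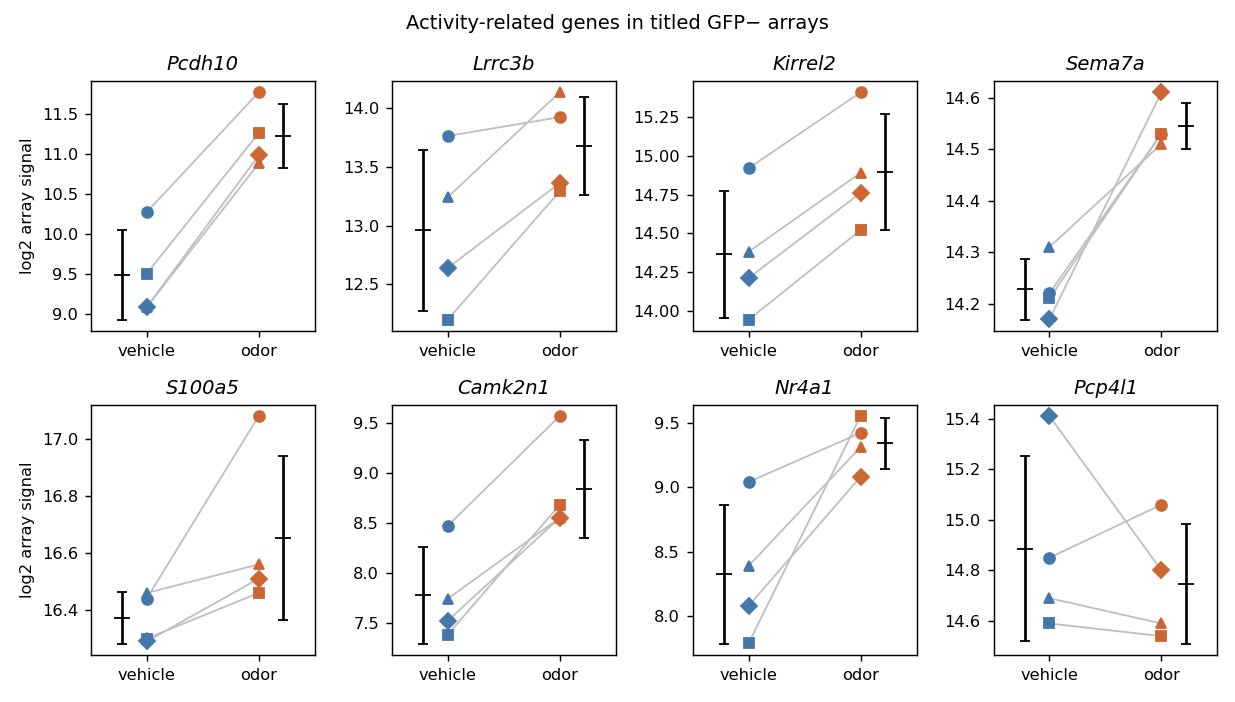
Log2 array signal of 8 activity-related genes on the arrays titled GFP-, 4 vehicle (blue) and 4 odor (orange), with marker shape giving the replicate number, grey lines joining arrays of the same number, and black marks giving the mean ± SD. Pcdh10 shows every odor array above every vehicle array with nearly parallel lines, at a difference of 1.74, whereas S100a5 has 1 odor array apart from the rest at 17.08.

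Camk2n1, an inhibitor of calcium/calmodulin-dependent kinase II, was among the 5 genes outside the receptors with the smallest p on the higher side. Its signal was 9.57, 8.68, 8.55 and 8.55 with odor and 8.47, 7.38, 7.74 and 7.52 with vehicle. Odor arrays exceeded their same-numbered partners by 1.09, 1.30, 0.81 and 1.03. The difference of 1.06 (SE 0.25, 95% interval 0.54 to 1.58) did not pass (adjusted p 1, and 0.18 with the block), and was 0.81 without odor replicate 1. Prr15, a proline-rich protein, was at 11.38, 11.26, 11.19 and 11.21 with odor and at 10.70, 10.86, 10.90 and 10.84 with vehicle, a difference of 0.43 (SE 0.11) with no overlap. Ribc1 differed by 0.57 (SE 0.15), but was above background on 2 odor arrays and 0 vehicle arrays, and Gpr179 differed by 0.65 (SE 0.19), with 3 odor arrays and 1 vehicle array above background.

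On the lower side, the 5 smallest p outside the receptors belonged to Aco1, P2rx4, Tmem41a, Xkr7 and Cd274, none of which passed. Aco1, a cytosolic aconitase that also acts as an iron regulatory protein, was at 8.27, 8.63, 8.13 and 8.25 with odor and at 8.87, 8.91, 8.85 and 8.99 with vehicle, a difference of -0.59 (SE 0.14, unadjusted p 5.5e-04). P2rx4, an ATP-gated cation channel, was at 11.70, 12.18, 11.68 and 11.86 with odor and at 12.29, 12.48, 12.29 and 12.51 with vehicle, a difference of -0.54 (SE 0.14, unadjusted p 0.0018). In both genes the groups did not overlap. Tmem41a, at -0.69 (SE 0.19), was above background on 0 odor and 3 vehicle arrays, which bounds the difference at 1.32-fold or more. Xkr7 and Cd274, the ligand PD-L1, differed by -0.63 (SE 0.17) and -0.57 (SE 0.16), and Xkr7 was above background on 0 odor and 2 vehicle arrays.

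Immediate-early genes, which neurons transcribe within minutes of firing, showed no common direction. Of 32 features, 2 were higher and 1 lower at an unadjusted p under 0.05, and the median was -0.06 (all features, 2.35% and 1.77%, median 0.00). Nr4a1, a nuclear receptor, was at 9.42, 9.55, 9.31 and 9.08 with odor and at 9.04, 7.79, 8.39 and 8.08 with vehicle. The groups were separate by a narrow margin, and the difference was 1.02 (SE 0.46, 95% interval 0.04 to 1.99, adjusted p 1). The other feature on the higher side, Bdnf, was below background on all 8 arrays. Ier5 was at 10.52, 10.23, 9.90 and 9.72 with odor and at 10.96, 10.86, 10.70 and 10.30 with vehicle, with a difference of -0.62 (SE 0.21, unadjusted p 0.0084). The AP-1 subunits Fos and Fosb differed by -0.64 (SE 0.58) and -0.80 (SE 0.59), and Egr1 by -0.61 (SE 0.45), all with overlapping groups. Arc and Npas4 were below background on every array.

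The signalling chain from receptor to current was at nearly equal levels in both groups. Among 16 odorant transduction genes, 0 had an unadjusted p under 0.05 and the median difference was -0.04. Gnal, the alpha subunit of Golf, differed by -0.01 (SE 0.11), Adcy3, adenylyl cyclase 3, by -0.03 (SE 0.10), Cnga2, the main channel subunit, by -0.01 (SE 0.11), and Ano2, the chloride channel that amplifies the current, by -0.10 (SE 0.10). The 17 mature neuron markers, the 19 genes of receptor trafficking and choice, the 18 immature neuron markers and the 18 potassium and calcium channels of excitability also had 0 members at that p in either direction, with medians of -0.05, -0.02, -0.02 and 0.02. The receptor chaperone Rtp1 differed by -0.10 (SE 0.11), the growth cone protein Gap43 by 0.02 (SE 0.31) and the homeodomain factor Lhx2 by 0.04 (SE 0.12).

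Axon sorting and guidance genes numbered 22, of which 3 were higher and 0 lower at an unadjusted p under 0.05, with a median of 0.02 (all features, 2.35% and 1.77%). The 3 were Pcdh10 and Sema7a, described above, and Chl1, which was below background on all 8 arrays. The related protocadherins Pcdh17, Pcdh19 and Pcdh8 differed by 0.02 (SE 0.32), -0.12 (SE 0.19) and 0.03 (SE 0.29). The guidance receptors Nrp2 and Plxna1 differed by -0.21 (SE 0.15) and 0.24 (SE 0.15).

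Stress and metabolic genes were likewise close to 0. Heat shock genes numbered 9, with 0 at that p and a median of 0.04, although Hspa1a and Hspa1b varied widely between pools (SE 1.41 and 1.45). Of 17 genes of the unfolded protein response 1 was lower, Dnajc3 at -0.30, and of 13 genes of the oxidative stress response 1 was lower, Hmox1. Hmox1, heme oxygenase 1, was at 11.67, 11.98, 11.56 and 11.89 with odor and at 11.92, 12.31, 12.22 and 12.19 with vehicle, a difference of -0.39 (unadjusted p 0.020). Of 28 odorant metabolism enzymes 1 was lower, Aox2, which was below background on all 8 arrays, and the median was -0.01. Of 62 cytosolic ribosomal protein genes 1 was higher, Rpl32l at 0.38, with a median of -0.03, and of 93 oxidative phosphorylation genes 0 were at that p, with a median of -0.06. Markers of other cells of the mucosa gave 0 higher and 1 lower of 15 for sustentacular cells, 0 and 0 of 11 for Bowman glands, 0 and 1 of 13 for respiratory ciliated cells, 1 and 0 of 13 for microvillar cells and ionocytes, 0 and 0 of 15 for neutrophils and 0 and 1 of 13 for endothelial and mesenchymal cells. Basal and progenitor cells gave 0 higher and 1 lower of 12, vomeronasal neurons 1 and 0 of 6, and the 17 cell cycle genes, 8 ensheathing glia, 3 erythroid and 11 guanylyl cyclase D neuron markers gave 0 and 0, with most of these below background. The median of the microvillar and neutrophil lists was 0.17 in both, from features mostly below background. The members at that p were Krt18 (sustentacular), Col1a1 (mesenchymal), Hes6 (progenitor), Ascl3 (microvillar) and Vmn1r89 (vomeronasal), all below background on the 8 arrays. Ccdc113, of the ciliated list, was above background on 1 odor and 2 vehicle arrays.

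**Figure D2:**
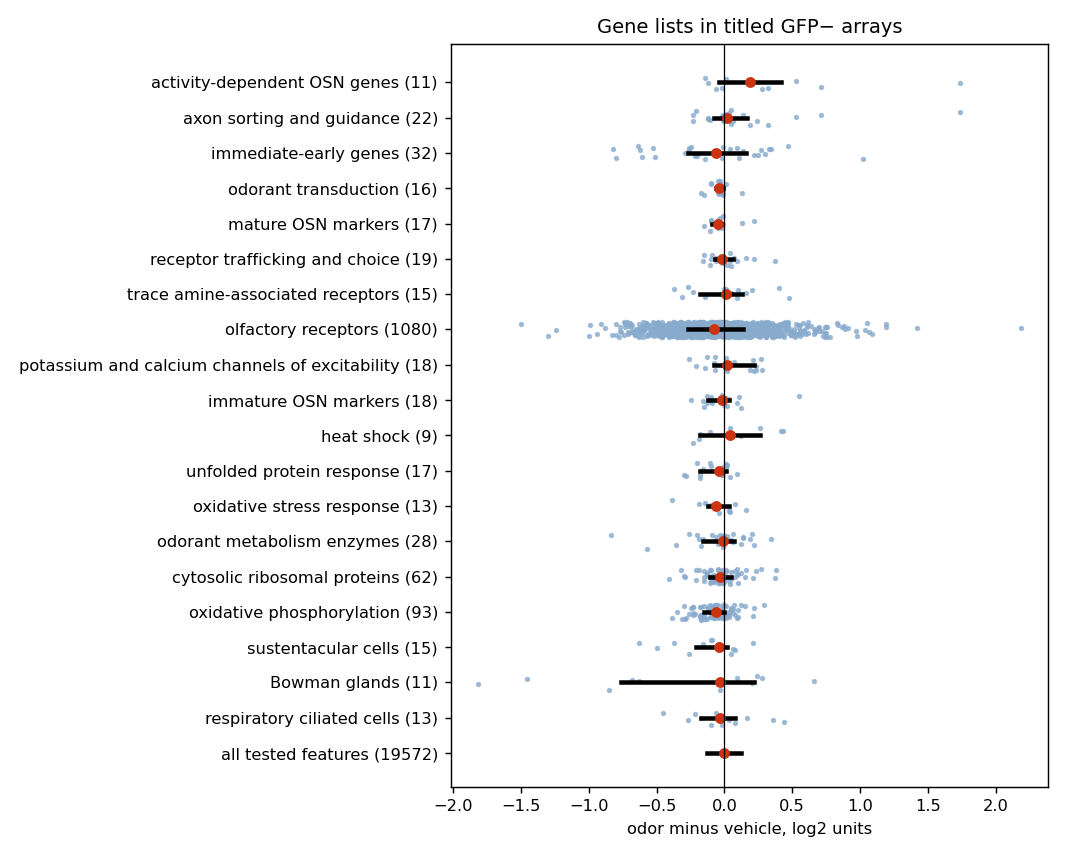
Odor minus vehicle in log2 units on the arrays titled GFP- for each member (dots) of the gene lists, with the list median in red and the middle 50% of members as a bar. The list medians lie close to 0, with that of the activity-dependent genes at 0.19 and Pcdh10 as its farthest member at 1.74.

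Among the receptors, Olfr16 had the widest difference. Olfr16, also called MOR23, is an aldehyde receptor known for its response to lyral, a floral odorant. Its signal was 12.05, 12.91, 12.02 and 10.04 on odor arrays 1 to 4 and 9.48, 8.72, 10.90 and 9.14 on vehicle arrays 1 to 4. Odor arrays 1 to 3 lay above all vehicle arrays, and odor array 4 lay below vehicle array 3. The means were 11.75 ± 1.21 (SD, n = 4) and 9.56 ± 0.95 (SD, n = 4), a difference of 2.19 (SE 0.58, 95% interval 0.96 to 3.43) or 4.57-fold. It did not pass (unadjusted p 0.0017, adjusted p 1, and 0.77 with the block). Same-numbered differences were 2.57, 4.19, 1.12 and 0.90, all above 0, and leaving out any 1 pool gave 1.81 to 2.76 (2.10 without odor replicate 1). Olfr2, the mouse I7 receptor for straight-chain aldehydes, was at 7.76, 7.56, 7.33 and 8.45 with odor and at 7.69, 7.32, 8.04 and 8.37 with vehicle. The groups overlapped fully, and the difference of -0.08 had a 95% interval of -1.01 to 0.85, so a shift of up to about 1 log2 unit in Olfr2 could not be seen at this spread.

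The 4 receptors named after Olfr16 on the higher side were Olfr586, Olfr609, Olfr655 and Olfr774, and none passed. Olfr586 was at 10.26, 9.36, 10.03 and 9.15 with odor and at 9.33, 8.56, 8.56 and 8.18 with vehicle, a difference of 1.04 (SE 0.32) with 4 of 4 same-numbered pairs higher. Olfr609 was at 11.44, 11.81, 11.51 and 10.79 with odor and at 10.24, 10.63, 10.60 and 10.57 with vehicle, a difference of 0.88 (SE 0.30) with no overlap. Olfr655 was at 11.26, 11.18, 11.29 and 10.36 with odor and at 9.77, 9.64, 10.99 and 9.76 with vehicle, a difference of 0.98 (SE 0.34). These 3 lie in the receptor clusters of chromosome 7. Olfr774, on chromosome 10, was at 8.22, 8.38, 8.23 and 7.86 with odor and at 7.73, 7.32, 6.76 and 7.99 with vehicle, a difference of 0.72 (SE 0.26). Their unadjusted p ran from 0.0047 to 0.012.

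On the lower side, Olfr285 was at 10.27, 10.31, 10.07 and 9.90 with odor and at 10.60, 10.70, 11.49 and 10.41 with vehicle. The groups did not overlap, and the difference was -0.67 (SE 0.22), or -0.44 without vehicle replicate 3. Olfr1211 was at 11.38, 11.22, 11.44 and 12.06 with odor and at 12.07, 11.81, 12.72 and 12.14 with vehicle, a difference of -0.66 (SE 0.23), with odor array 4 inside the vehicle range. Olfr724 differed by -0.71 (SE 0.25), Olfr1469 by -0.74 (SE 0.29) and Olfr1241 by -0.64 (SE 0.27). The Olfr1469 difference rested largely on odor array 1, at 7.99 against 9.19 to 9.88 on the other odor arrays, and was -0.38 without it. That of Olfr724 was -0.47 without odor replicate 2. Olfr1241 was above background on 0 odor and 2 vehicle arrays, so that only a bound of 1.18-fold or more can be given. Other receptors that reached 1 log2 unit, picked after their values were seen, were Olfr1221 at 1.42, Olfr638 and Olfr605 both at 1.19, Olfr323 at 1.09, Olfr1408 at 1.07 and Olfr1112 at 1.05, and on the lower side Olfr1213, Olfr769 and Olfr1184. Without vehicle array 2, at 4.58, Olfr1221 was at 0.54, and without vehicle array 3 Olfr323 turned to -0.54. The 3 on the lower side were mostly not above background, on 1 odor and 2 vehicle arrays for Olfr1213, 0 and 1 for Olfr769 and 0 and 1 for Olfr1184, so no fold is given for them. On the higher side, Olfr638 had separate groups, at 9.55, 11.06, 10.82 and 9.52 with odor and at 9.33, 9.07, 8.99 and 8.81 with vehicle.

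The 1080 intact receptor genes as a set had 12 higher and 14 lower at an unadjusted p under 0.05, or 2.41% against 4.11% of all features, and a median difference of -0.08. Among features above background on at least 4 of the 8 arrays, the shares were 2.55% of receptors and 2.45% of the others. Odor arrays lay wholly above vehicle arrays for 4 receptors, Olfr609, Olfr127, Olfr638 and Olfr109, and wholly below for 4, Olfr769, Olfr285, Olfr734 and Olfr464, a smaller share than the 1.51% and 1.46% of all features. Olfr127 was above background on 0 odor and 0 vehicle arrays and Olfr769 on 0 and 1. Olfr109 differed by only 0.19 (SE 0.21). The median signal over receptors was 9.07 ± 0.263 with odor and 9.13 ± 0.249 with vehicle (SD, n = 4), which did not differ beyond the spread (exact two-sided permutation test, p = 0.714, where 0.0286 is the smallest p that 4 against 4 can give). The 15 trace amine-associated receptors, a separate family of olfactory receptors for amines, had 0 members at an unadjusted p under 0.05 and a median of 0.01. Taar3 differed by 0.20 (SE 0.85), Taar4 by -0.27 (SE 0.57) and Taar9 by -0.23 (SE 0.75). Of 13 receptors with known ligands or mapped glomeruli, 0 were at that p and the median was -0.06, with Olfr73, the eugenol receptor, at -0.03 (SE 0.38), Olfr160 (M72) at 0.11 (SE 0.64) and Olfr17 (P2) at 0.37 (SE 0.35).

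**Figure D3:**
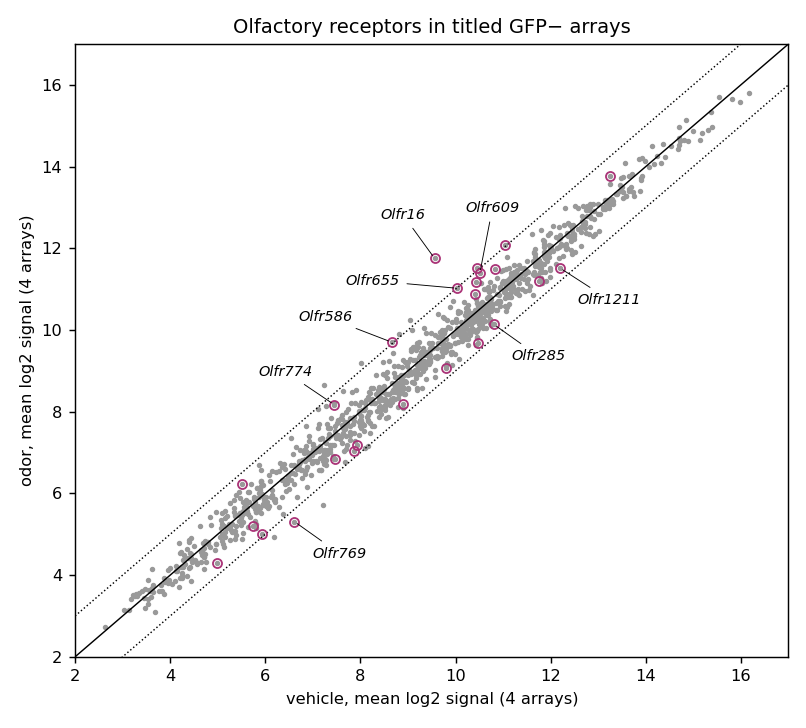
Mean log2 signal of each of the 1080 olfactory receptors over the 4 odor arrays (vertical) against the 4 vehicle arrays (horizontal), with the line of equality, dotted lines at 1 log2 unit either side, and circles for an unadjusted p under 0.05. Olfr16 lies farthest above the upper dotted line at 11.75 against 9.56, and most circled receptors lie within 1 log2 unit of equality.

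Receptor transcripts varied more between pools than other transcripts did. Over 784 receptors above background on at least 4 of the 8 arrays, the median SD within a group was 0.57 log2 units (middle 50% of receptors, 0.43 to 0.79), while over 8567 other features filtered the same way it was 0.20 (0.15 to 0.27). The median half-width of the 95% interval of a difference was 0.80 for a receptor and 0.35 for the others. A difference of at least 1 log2 unit was reached by 8 of these receptors, 1.02%, and by 6 of the other features, 0.07%. In the fit without the block, a measured difference under 0.80 log2 units in a receptor of median spread thus could not be told from 0. That holds even before adjustment. With the block, the SE of Olfr1112 was 0.24 in place of 0.38, and that of Olfr16 was 0.61 in place of 0.58.

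Part of that spread was shared between an odor pool and the vehicle pool of the same number. Deviations from a group mean add up to 0, so a correlation of same-numbered arrays itself lowers the values for different numbers. Over receptors the same-numbered deviations correlated at 0.52, 0.43, 0.40 and 0.78 for pairs 1 to 4, against -0.44 to 0.08 for pairs of different numbers, as a description across receptors, which are not independent. Over other detected features the values were 0.35, 0.33, 0.20 and 0.46, against -0.39 to 0.32. Olfr11 was at 7.13, 9.09, 9.67 and 11.19 with odor and at 7.40, 8.56, 8.30 and 11.33 with vehicle, so that number 1 was lowest and number 4 highest in both groups. Olfr1182 was at 4.41, 7.75, 4.74 and 9.01 with odor and at 4.16, 8.51, 5.81 and 8.85 with vehicle. Both were chosen after their values were seen, from the 10 receptors with the widest spread within a group. Olfr323, at 9.82, 9.94, 9.15 and 10.72 with odor and at 9.16, 11.19, 3.91 and 11.01 with vehicle, was the widest, with an SD of 2.45, and its difference of 1.09 comes with 1 vehicle array under background.

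**Figure D4:**
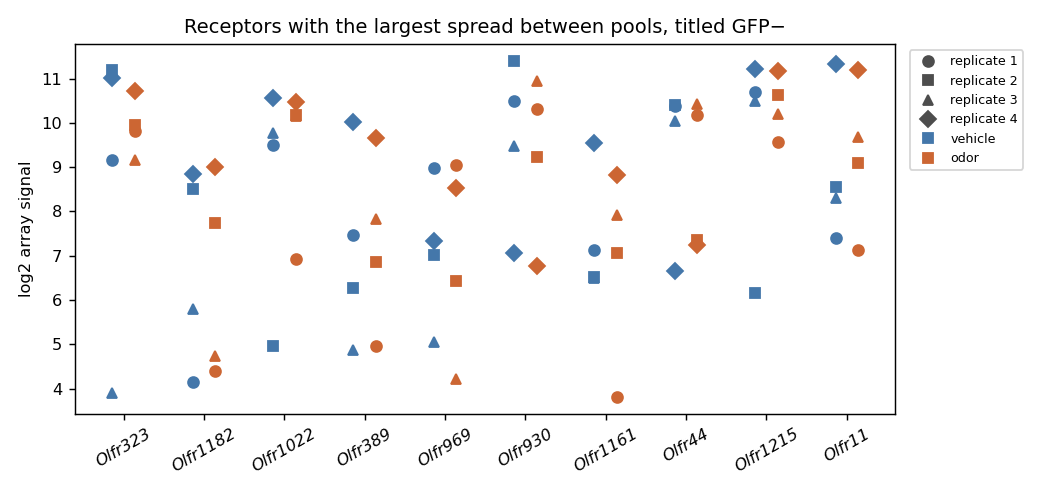
Log2 array signal on the 4 odor and 4 vehicle arrays titled GFP- for the 10 receptors with the widest spread within a group, each symbol an array. Single receptors span several log2 units between pools given the same treatment, from 3.91 to 11.19 in Olfr323.

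Receptors split by class, a division examined after the values were seen, did not lie on the same side of 0. Class I receptors, the older fish-like class, many of which bind carboxylic acids, numbered 121 by their MOR synonyms in RefSeq. They had a median difference of 0.08 with 77 (63.6%) above 0, and 3 higher and 0 lower at an unadjusted p under 0.05. The 940 class II receptors had a median of -0.11 with 328 (34.9%) above 0, and 8 higher and 14 lower. The other 19 receptors had no MOR name and were left out of this split, with 1 higher, Olfr16, and 0 lower. Over all features 49.2% were above 0, with 2.35% higher and 1.77% lower at that p. Among features above background on at least 4 of the 8 arrays, 37.4% of receptors and 41.8% of the others were above 0. The class I median minus the class II median of each array was -0.73, -0.80, -1.13 and -0.61 with odor and -1.03, -1.07, -1.29 and -0.72 with vehicle. The odor array was higher in 4 of 4 same-numbered pairs, and the groups overlapped. On the arrays titled GFP+ the medians of the odor difference were -0.26 for class I and -0.22 for class II.

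The fraction titled GFP+ from the same pools gave 0 features past an adjusted p of 0.05 (0%) and 2016 with an unadjusted p under 0.05 (10.3%). The difference between the fractions in their odor effects, tested as an interaction, gave 0 (0%) past an adjusted p of 0.05 and 739 (3.78%) at an unadjusted p under 0.05, of which 427 (2.18%) were higher on the arrays titled GFP-. These counts come from the fit that did not pair the fractions of a pool. Pcdh10 on the arrays titled GFP+ was at 10.98, 10.01, 9.65 and 9.89 with odor and at 8.85, 7.99, 8.41 and 8.54 with vehicle. The groups again did not overlap, and the difference of 1.69 (SE 0.31, adjusted p 0.30) was set against 1.74, with an interaction of 0.05 (SE 0.44, adjusted p 1). The Pcdh10 values of both fractions come from the same mice and are not independent of each other.

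Olfr16 had opposite signs in the fractions. On the arrays titled GFP+ it was at 9.29, 10.28, 11.13 and 11.49 with odor and at 11.71, 12.11, 11.22 and 12.31 with vehicle, a difference of -1.29 (SE 0.58). The interaction was 3.48 (SE 0.83, unadjusted p 6.5e-04), which did not pass (adjusted p 1). A fit that took the pool as a fixed block gave an SE of 0.95, an unadjusted p of 0.0044 and an adjusted p of 0.91. Olfr774 had the same form. On the arrays titled GFP+ it was at 6.38, 6.10, 5.65 and 6.18 with odor and at 6.77, 7.03, 6.40 and 7.40 with vehicle, a difference of -0.82 (SE 0.26). Its interaction was 1.55 (SE 0.36, unadjusted p 5.7e-04, adjusted p 1). The fit with pools gave an SE of 0.25, an unadjusted p of 9.4e-05 and an adjusted p of 0.91. Those Olfr774 signals in the titled GFP+ fraction lay near or under background. Sema7a, Kirrel2 and Lrrc3b differed by 0.48, 0.82 and 1.07 on the arrays titled GFP+, on the same side as here, while Nr4a1 differed by -0.25 and Aco1 by -0.01 there.

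**Figure D5:**
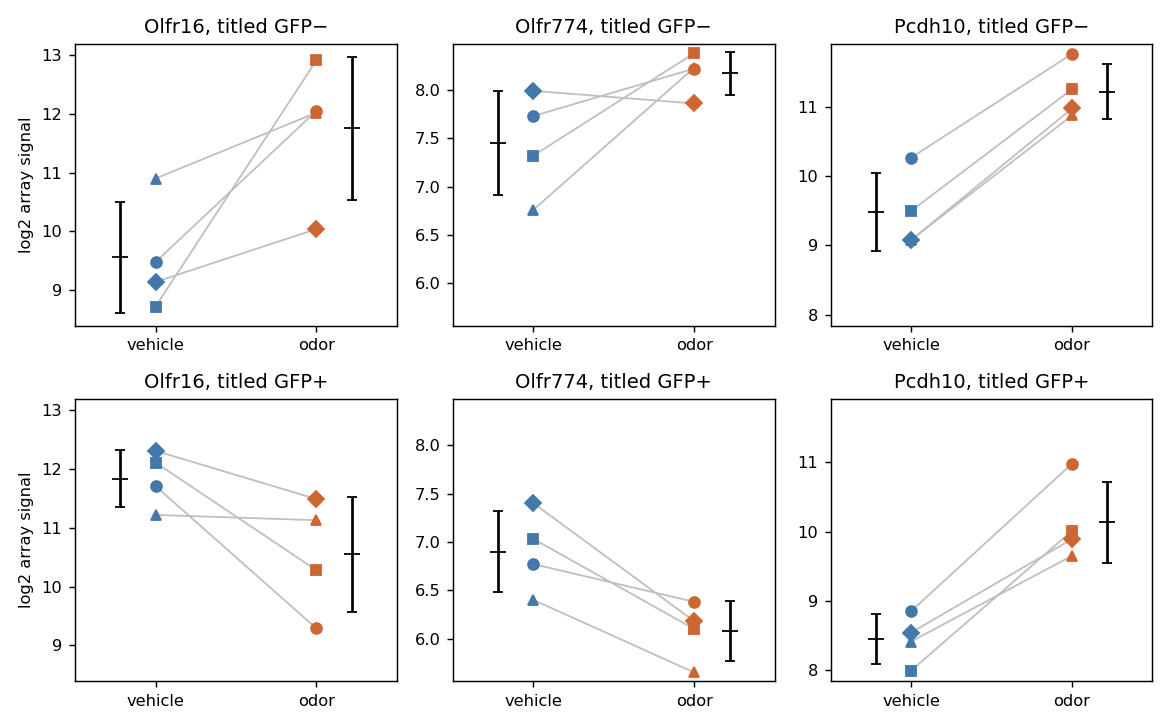
Log2 array signal of Olfr16, Olfr774 and Pcdh10 in vehicle (blue) and odor (orange) pools, on the arrays titled GFP- and on their partners titled GFP+ from the same mice, with the mean ± SD of 4 pools. Pcdh10 stands higher with odor in both fractions (1.74 and 1.69), while the means of Olfr16 and Olfr774 are higher with odor on the arrays titled GFP- (2.19 and 0.72) and lower on those titled GFP+ (-1.29 and -0.82).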

How the data were processed

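The deposited values are log2 array signals (the unit was taken from the values, 1.77 to 19.3) on 16 Clariom S arrays, which give 1 summarized value per transcript cluster. Per the submitters' processing notes they came from Affymetrix Expression Console. Its version, background correction and normalization are not given in the sources used here, and the authors' scaling between arrays was kept. Biotinylated cRNA came from 50 to 100 ng of RNA, per the labels' protocols.

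Of 28846 entries per array, 19572 carried 1 gene symbol and were tested; 0 carried more, and 2634 transcript clusters have no name here. They cover 19505 genes, 55 of them with more than 1 feature. Symbols came from the platform annotation and were matched to a RefSeq table of GRCm38.p6, which also gave the promoters, in a table that lacks Camk2n1. The number of arrays limits the precision. Nothing in the labels says how the pools were made up beyond 3 mice each, so p-values measure the spread between these pools. No array was left out or imputed.

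A model with 1 mean for each of 4 groups was fitted to all 16 arrays with limma 3.58.1 in R 4.3.3 (lmFit, eBayes), and p-values were adjusted by Benjamini and Hochberg over all features, with a threshold of 0.05. It was tried on simulated data with independent noise on each array. That simulation left out the correlation between same-numbered arrays, so it cannot show how the fits behave under it. SE and 95% intervals are the moderated ones. SE, intervals and p-values of this fit draw on the spread of the arrays titled GFP+ too. The fractions of a pool entered it as independent. Fold changes are 2 to the power of the log2 difference. A bound on a fold takes the background as the dim group's level. Single array measures, 21 in all, were compared by an exact two-sided permutation test, and the smallest of their adjusted p was 0.802.

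The replicate number pairs odor and vehicle: the series' design text states simultaneous exposure, and the deviations of same-numbered arrays correlated at 0.24, 0.21, 0.18 and 0.38 (different numbers, -0.25 to 0.14). The fit without the block is the main result.

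Genes were named by rule: the 5 with the smallest p in each direction among receptors and among other genes, where fewer passed, with more than 1 array of the brighter group above background; the activity-dependent genes; Olfr16 and Olfr2; and up to 4 members per other list. For the other lists the rule took the members with the smallest p. Further members, such as Gnal, Taar3, Fos and Pcdh17, were named as examples outside the rule. The members and lists were chosen with earlier results of these data known. Alternatives changed the arrays fitted, normalization, centring, filter, block, weights and variance model, and left out pools.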

Additional observations from a re-analysis of the deposited data

Results flagged for a closer look

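In groups of 4 arrays, a sample was picked out where its gap to the nearest other array, divided by the range of the group, was above Dixon's 95% critical value. Of 214 groups examined, 15 were picked out, where chance gives about 1 in 20.

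Among odor arrays titled GFP-, replicate 1 was picked out for Camk2n1 (ratio 0.87; 9.57 against 8.55 to 8.68), S100a5 (0.846; 17.08 against 16.46 to 16.56), the mean of immature neuron markers (0.888; 10.6 against 10.89 to 10.93) and the mean of neutrophil markers (0.865; 5.83 against 5.352 to 5.416). Replicate 2 was picked out for Ano2 (0.851; 17.11 against 17.27 to 17.29). Replicate 4 was picked out for Olfr655 (0.884; 10.36 against 11.18 to 11.29) and Hsph1, a heat shock protein (0.866; 11.1 against 11.71 to 11.8).

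Among vehicle arrays, replicate 1 was picked out for Olfr609 (0.848; 10.24 against 10.57 to 10.63) and the receptor chaperone Rtp2 (0.9; 15.52 against 15.05 to 15.1). Replicate 2 was picked out for Hdac2 (0.922; 13.03 against 13.28 to 13.3), Dnah9, an axonemal dynein (0.83; 7.48 against 7.01 to 7.09), and the mean of guanylyl cyclase D neuron markers (0.93; 5.261 against 5.526 to 5.546). Replicate 3 was picked out for Olfr655 (0.905; 10.99 against 9.64 to 9.77) and Tmem41a (0.842; 7.01 against 7.78 to 7.92). Replicate 4 was picked out for Olfr983 (0.847; 8.46 against 8.94 to 9.03).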

How the results depend on the processing

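The count of features past an adjusted p of 0.05 stayed at 0 in both directions under every alternative without the replicate block. Over all settings, blocked fits included, 171 to 1355 features had an unadjusted p under 0.05. The number of features tested differed between settings, and the shares ran from 2.12% to 6.92%. With the replicate block 1 feature averaged higher and passed, Pcdh10, at 1.74 in the fit of 16 arrays (adjusted p 0.00217) and of 8 arrays (0.0317); the block changed no other call. Blocked fits added after seeing the data also gave a count of 1, with Pcdh10 at 1.74 with the filter on dim features (adjusted p 0.000777), 1.75 after quantile normalization, 1.74 centred on all features and 1.78 centred on receptors. Blocked fits that left out 1 replicate number gave counts of 0 to 1 and Pcdh10 at 1.68 to 1.82. Unblocked fits that left out 1 pool gave Pcdh10 at 1.56 to 2.00 with adjusted p of 0.133 to 1.

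Among the activity-dependent genes, Olfr16, Olfr2 and the genes named for the smallest p, sign changes were limited to differences near 0. Other genes were not followed through all alternatives, and some changed sign when 1 array was left out. Olfr323 went from 1.09 to -0.54 without vehicle array 3. Olfr235 went from -0.53 to 0.2 without odor array 2, and Apoe from 0.41 to -0.03 without odor array 1. Centring on receptors put Epha5 at 0.03, with or without the block, and array weights put Efna5 at -0.02 and Olfr2 at 0.01. Over the fits that left out 1 pool, Kirrel3 ran from -0.30 to 0.11, Plcxd3 from -0.17 to 0.03, Epha5 from -0.08 to 0.06, Efna5 from -0.05 to 0.06, Olfr2 from -0.30 to 0.09 and Pcp4l1 from -0.24 to 0.04. Leaving out 1 number with the block put Epha5 at 0.02 to 0.05, Plcxd3 at 0.03 to 0.08, Efna5 at -0.06, Olfr2 at 0.13 and Pcp4l1 at 0.02. Without the block, differences of the size of most receptors' intervals could not be resolved, with 4 pools a group and the receptors' wider spread.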

Other observations

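Genes of the Bpifb family, secreted lipid-binding proteins of nasal glands, were among the 18 features that differed by at least 1 log2 unit. Bpifb9b was at 9.54, 8.73, 9.70 and 11.77 with odor and at 10.05, 9.74, 14.29 and 12.93 with vehicle on the arrays titled GFP-, a difference of -1.82 (SE 1.18; adjusted p 1). Vehicle arrays 3 and 4 and odor array 4 were high, and the groups overlapped, yet the odor array was lower in 4 of 4 same-numbered pairs, by -0.52, -1.01, -4.59 and -1.16 (SE 0.67 with the replicate block, adjusted p 0.81). Bpifb9a and Bpifb3 differed by -1.46 and -1.10, also lower in 4 of 4 pairs, with Bpifb9a above background on 1 odor array. In pair 1 the Bpifb9a difference was only -0.12, and in pair 2 that of Bpifb3 rounded to 0. Without vehicle array 3 the differences were -0.97 for Bpifb9b, -0.67 for Bpifb9a and -0.61 for Bpifb3. On the partner arrays titled GFP+, Bpifb9b, Bpifb9a and Bpifb3 differed by -1.99, -2.03 and -1.03. These genes were chosen after their values were seen.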
